A study of Mus musculus with 16 samples.

Results

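The genes described here are 52 mouse genes whose products take a cell into mitosis, build the spindle, join chromosomes to it at the centromere, and finish division. They were listed by name, with earlier results of these data known, so their counts are not those of a list drawn up blind. Each was represented by the probe set that carries its symbol (the brightest one over all arrays, had there been several). Of the 52 listed genes, 51 were measured, among 19505 named genes on 22206 tested probe sets. Ccnb1, which encodes cyclin B1, was not analysed here.

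Mitosis is started by the kinase Cdk1 bound to a cyclin, and the copied chromosomes are then attached to spindle microtubules through the kinetochore, a protein layer that forms on the centromere. A checkpoint holds the anaphase-promoting complex inactive until every kinetochore is attached, after which securin and the cyclins are degraded, the copies separate, and motor proteins and a contractile ring divide the cell. The mRNAs of most of these proteins are made late in the cell cycle, under control of promoter elements called CHR and CCAAT that are bound by the DREAM, MuvB, Foxm1 and NF-Y factors, so they are known as markers of dividing cells, in tubular epithelium as elsewhere.

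BU.MPT is a cell line from mouse kidney proximal tubule, made from animals that carry a temperature-sensitive SV40 large T antigen inducible by interferon gamma. All samples were grown at 39 °C with no IFN-γ, to at least 90% confluence, and 700 pg of RNA went on each array. In the group H/R+B12, oxygen was held near 1% for 3 h in medium that lacked glucose and serum, followed by 1 h of normal culture (hypoxia/reperfusion, H/R), with 0.3 µM cyanocobalamin, a form of vitamin B12. The H/R group had the same treatment without B12, the control+B12 group stayed in normal culture (21% oxygen, 10% serum and 4.5 g/L glucose) with the same dose of B12, and the control group stayed there without it. Each group had 4 arrays, 16 in all. The titles of all 8 B12 samples read B12, while the descriptions of replicates 2, 3 and 4 in those groups read B13, B14 and B15, and all were treated as B12 samples. Nothing in the labels tells if replicates came from separate cultures, and the p-values then cover only the spread between these arrays, which may be technical. H/R changed oxygen, glucose and serum at once, and their parts cannot be told apart. RNA of whole cultures was measured, so fewer dividing cells and less mRNA per cell cannot be told apart.

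Signals are log2 values as deposited, and differences between groups are log2 fold changes from a limma model of all 4 groups, with p-values adjusted by Benjamini and Hochberg over 22206 probe sets and a threshold of 0.05. Array medians lay between 5.21 and 5.37, and the medians of the negative control features between 5.72 and 6.23. Every member except Spc24 and Cenpl lay above its array's negative control median in all 16 arrays, and those 2 genes fell below it in 4 arrays each, so their sizes of change are uncertain. Of 18 measured proximal tubule markers 15 had a mean below all the negative control medians, and Mme, Aqp1 and Slc4a4 were above. Markers of other cell types were mostly below as well, in 13 of 14 distal nephron genes, 8 of 9 fibroblast genes, 8 of 8 endothelial genes and 7 of 8 leukocyte genes. Such levels are common on these arrays, since every array median was also below the negative control medians. The share of all probe sets below them was not counted. Above the median probe set were 3 of the 18 proximal tubule markers and 1 gene in each of the other marker lists. The number of arrays limits the precision of every value.

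The array of control replicate 1 stood apart in these genes. It was the highest of the 4 control arrays for 47 of 51 members, against 24.8% of all probe sets, and the highest of all 16 arrays for 41 members, against 6.45% of all probe sets. Its mean over the members was 11.00, while the other controls gave 10.29, 10.46 and 10.21. Against the mean of controls 2 to 4, it was higher for 50 of 51 members, by a median of 0.66 on the log2 scale, and over all probe sets this difference had a median of -0.02. The excess was 1.80 for Cdc25c, a phosphatase that activates Cdk1, 1.38 for the centromere gene Cenpi, 1.31 for the cyclin gene Ccnb2, 1.22 for Nuf2 of the outer kinetochore and 1.12 for the cyclin gene Ccna2. Only Cenpo was lower in that array, with a difference of -0.35. The excess was present in other cell division lists too, with a median of 0.73 over 25 further spindle genes and 0.26 over 38 DNA replication genes, and its part in the results was not tested. Values of members and counts for H/R against control are therefore also given without this array.

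**Figure D1:**
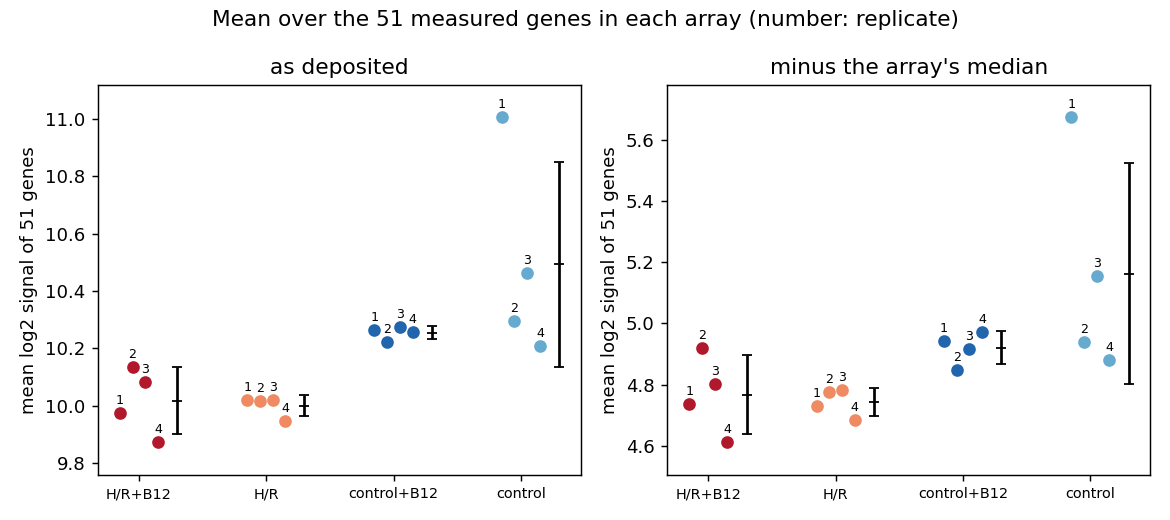
Mean log2 signal of the 51 measured genes in each array, as deposited on the left and after subtracting the array's median on the right, by group along the horizontal axis, with replicate numbers above the points and bars for the mean ± SD of 4 arrays. Control replicate 1 stands at 11.00, above every other array, and all 8 arrays with H/R lie at or below 10.14 in the left panel.

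The mean over the members was 10.02 ± 0.12 in H/R+B12 and 10.00 ± 0.04 in H/R, against 10.26 ± 0.02 in control+B12 and 10.49 ± 0.36 in control (SD, 4 arrays each). Without control replicate 1 the control mean was 10.32 ± 0.13 (SD, 3 arrays). The 4 H/R+B12 arrays lay between 9.87 and 10.14 and the 4 H/R arrays between 9.95 and 10.02, while the control+B12 arrays lay between 10.22 and 10.28 and the control arrays between 10.21 and 11.00. Arrays with H/R and arrays without it did not overlap on this mean as deposited, and the list mean has no test here. With arrays centred on their medians they overlapped, since H/R+B12 replicate 2 was at 4.92, above control+B12 replicate 2 at 4.85 and control replicate 4 at 4.88.

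Promoters of the members were compared with their responses, and those of 6 members are printed to set genes that fell strongly beside genes that did not pass the test. Cenpm, Cenpk and Spc25 had the largest falls after H/R, Kif11 had a smaller one, and Cdk1 and Cdc20 did not pass. The log2 fold changes of Kif11 and Cdc20 after H/R were alike, both at -0.58. All 6 were picked after their values were seen and do not stand for the members as a whole. Each is the 150 bases before the annotated start, 5′ to 3′ on the gene's strand, from RefSeq on GRCm38.p6. Capitals mark the letters TTTGAA (the core of the CHR element) and CCAAT, on either strand, so they read as TTCAAA and ATTGG where the match is on the other strand.
Cenpm (chr15:82244337-82244486, minus strand): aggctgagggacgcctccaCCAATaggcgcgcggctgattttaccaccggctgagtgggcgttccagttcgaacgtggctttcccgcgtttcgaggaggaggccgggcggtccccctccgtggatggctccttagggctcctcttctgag
Cenpk (chr13:104228461-104228610, plus strand): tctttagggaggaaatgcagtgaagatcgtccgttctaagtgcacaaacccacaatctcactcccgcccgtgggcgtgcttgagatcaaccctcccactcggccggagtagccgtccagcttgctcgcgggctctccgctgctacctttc
Spc25 (chr2:69206214-69206363, minus strand): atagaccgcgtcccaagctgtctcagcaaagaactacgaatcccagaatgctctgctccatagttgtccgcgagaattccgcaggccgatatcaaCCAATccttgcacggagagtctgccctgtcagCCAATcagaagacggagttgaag
Kif11 (chr19:37376232-37376381, plus strand): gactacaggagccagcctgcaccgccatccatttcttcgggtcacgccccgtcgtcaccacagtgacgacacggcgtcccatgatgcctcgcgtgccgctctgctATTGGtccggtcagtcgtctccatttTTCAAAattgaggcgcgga
Cdk1 (chr10:69352913-69353062, minus strand): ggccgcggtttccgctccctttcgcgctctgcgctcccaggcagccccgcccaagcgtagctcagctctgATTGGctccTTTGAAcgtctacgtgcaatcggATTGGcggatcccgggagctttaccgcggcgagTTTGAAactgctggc
Cdc20 (chr4:118437344-118437493, minus strand): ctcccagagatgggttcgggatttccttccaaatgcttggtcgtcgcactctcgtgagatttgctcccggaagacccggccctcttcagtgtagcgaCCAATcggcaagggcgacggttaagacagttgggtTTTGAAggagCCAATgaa
Cdk1 showed both sets of letters 2 times in this stretch and Cdc20 and Kif11 showed both, whereas Cenpm and Spc25 showed only CCAAT and Cenpk neither. Outside the stretches shown, Spc25 has a TTTGAA 24 bases after the start, and CCAAT lies 159 bases before the start in Cenpk, 172 in Cenpm and 208 in Cdk1. Cenpk also has CCAAT in the windows of its other annotated starts, among them 65 and 40 bases before one of these. Of members not printed, Kif20b and Cenpa fell in both H/R comparisons. Kif20b has TTTGAA 7 and 13 bases after its start, and Cenpa 16 bases after its own. Bub1, Cdc25b and Cenpq did not pass after H/R, and their windows have CCAAT but no TTTGAA.

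Over windows from 250 bases before to 50 bases after each start, 45 of the 52 members had a RefSeq entry, with 50 windows. Ccna2, Cdc25c, Tpx2, Aurkb, Incenp, Kif20a and Spc24 had none. TTTGAA on either strand was in 30 of 50 member windows (60%), against 17.9% of 32851 windows of all genes. CCAAT was in 39 windows (78%), against 37.4%, and both together were in 26 (52%), against 6.95%. The E2F-like letters GCGGGAA were in 6 windows (12%), against 4.6%. Matches of different letters were counted separately, also where they overlapped. Of 37 TTTGAA matches in the member windows, 29 lay within 50 bases of the start. Positions in the windows of all genes were not counted, so this is not shown to be particular to the members. Counted by gene, TTTGAA was in 4 of the 10 members with a window that fell in both H/R comparisons and in 8 of the 15 that fell after H/R without B12, against 19 of the 29 measured members that did not pass there. CCAAT was in 11 of the 15 that fell without B12 and in 22 of the 29 others, and GCGGGAA in 2 and 4. The groups were split by the threshold in these same data, and whether the response goes with any of these letters was not tested. A match is only a run of letters and not a shown binding site.

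**Figure D2:**
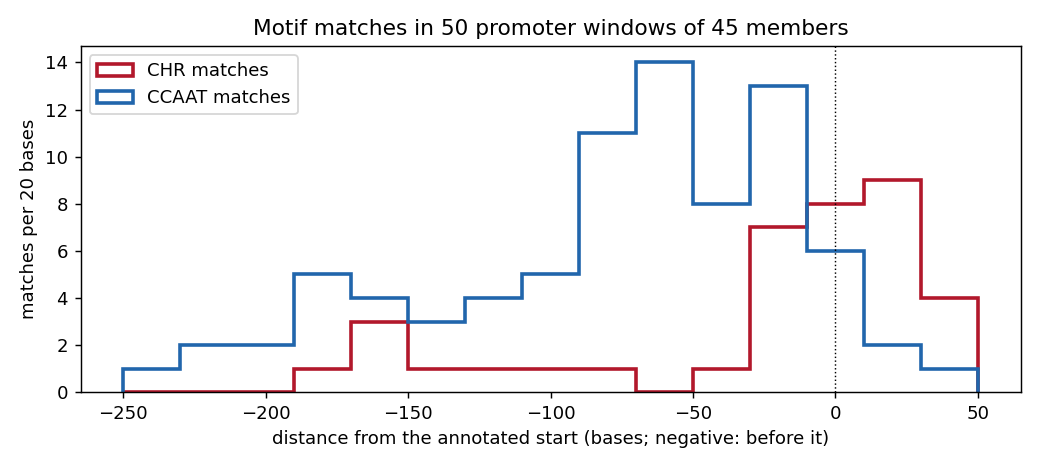
Number of TTTGAA (CHR) and CCAAT matches per 20 bases in 50 promoter windows of 45 members, by distance in bases from the annotated start along the horizontal axis, with negative distances before the start. CCAAT matches are most frequent before the start, and 29 of 37 CHR matches lie within 50 bases of it. Positions in the windows of all genes were not counted.

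H/R without added B12 was compared with control to ask which of these genes responded within hours to loss and return of oxygen, glucose and serum. After H/R, 16 of the 51 measured genes fell, against 9.54% of all probe sets, and none rose, against 8.11%. They were 5 of 13 centromere and inner kinetochore genes, 5 of 10 motor and cytokinesis genes, 2 of 6 outer kinetochore genes and 4 of the others. The largest falls were 4.13-fold for Cenpm, 2.75-fold for Spc25, 2.74-fold for Cenpk and 2.19-fold for Kif20b. Genes that start mitosis, among them Cdk1 and the cyclin genes, and those of the chromosomal passenger complex mostly did not pass. No member rose at an unadjusted p under 0.05 either, and the share of all probe sets that did so is not given here. The median log2 fold change of the members was -0.41, with 47 of 51 below 0, and that of all probe sets was -0.02, with 52.5% below 0.

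Without control replicate 1, 9 of 51 members fell, against 8.48% of all probe sets, with a median log2 fold change of -0.25. The 9 were Cenpm, Spc25, Cenpk, Kif20b, Kif20a, Cenpa, Mad2l1, Cenpe and Pttg1. Each of these 9 also passed under every one of 23 other settings of the fit. The other 7, which were Plk1, Aurka, Kif11, Kif2c, Ect2, Cenpi and Cenpu, no longer passed without that array, and no member rose, against 7.61% of all probe sets. After centring each array on its median, 11 members fell after H/R and none rose, against 7.41% and 9.61% of all probe sets.

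In 19 members the highest H/R array was below the lowest control array, against 11% of all probe sets, and in 19 without control replicate 1, against 13.4%. The same held between H/R+B12 and control+B12 in 14 members, against 11.2% of all probe sets. For 10 members, Mad2l1, Kif20b, Kif20a, Ect2, Spc25, Cenpe, Cenpa, Cenpi, Cenpk and Cenpm, all 8 arrays with H/R lay below all 8 arrays without it, against 5.98% of all probe sets, and without control replicate 1 this held for 10 members, against 6.58%.

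With B12 in both arms, 12 members fell after H/R and 2 rose, against 9.61% and 9.04% of all probe sets. Without control replicate 1, 13 fell and 2 rose there, against 2116 and 2032 of all 22206 probe sets. The members' median log2 fold change there was -0.19, with 35 of 51 below 0, against -0.04 for all probe sets. With arrays centred on their medians 8 members fell and 2 rose, against 7.23% and 10.9% of all probe sets. The log2 fold changes of the 2 comparisons come from separate arrays. Their p-values share the variances of the same fit of all groups, so the calls of the 2 comparisons are not independent. Both called 11 members lower, against 6.69% of all probe sets, namely Cenpm, Spc25, Cenpk, Kif20b, Kif20a, Cenpa, Mad2l1, Cenpe, Cenpi, Kif11 and Pttg1. Both called 9 members lower without control replicate 1, against 6.25% of all probe sets. Taking H/R over both B12 states, 18 members fell, against 14.7% of all probe sets, and 2 rose, against 12.5%. In that comparison 18 fell and 3 rose without control replicate 1, against 14.2% and 12.2%. The members' share of rises was below that of all probe sets in each of these comparisons.

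**Figure D3:**
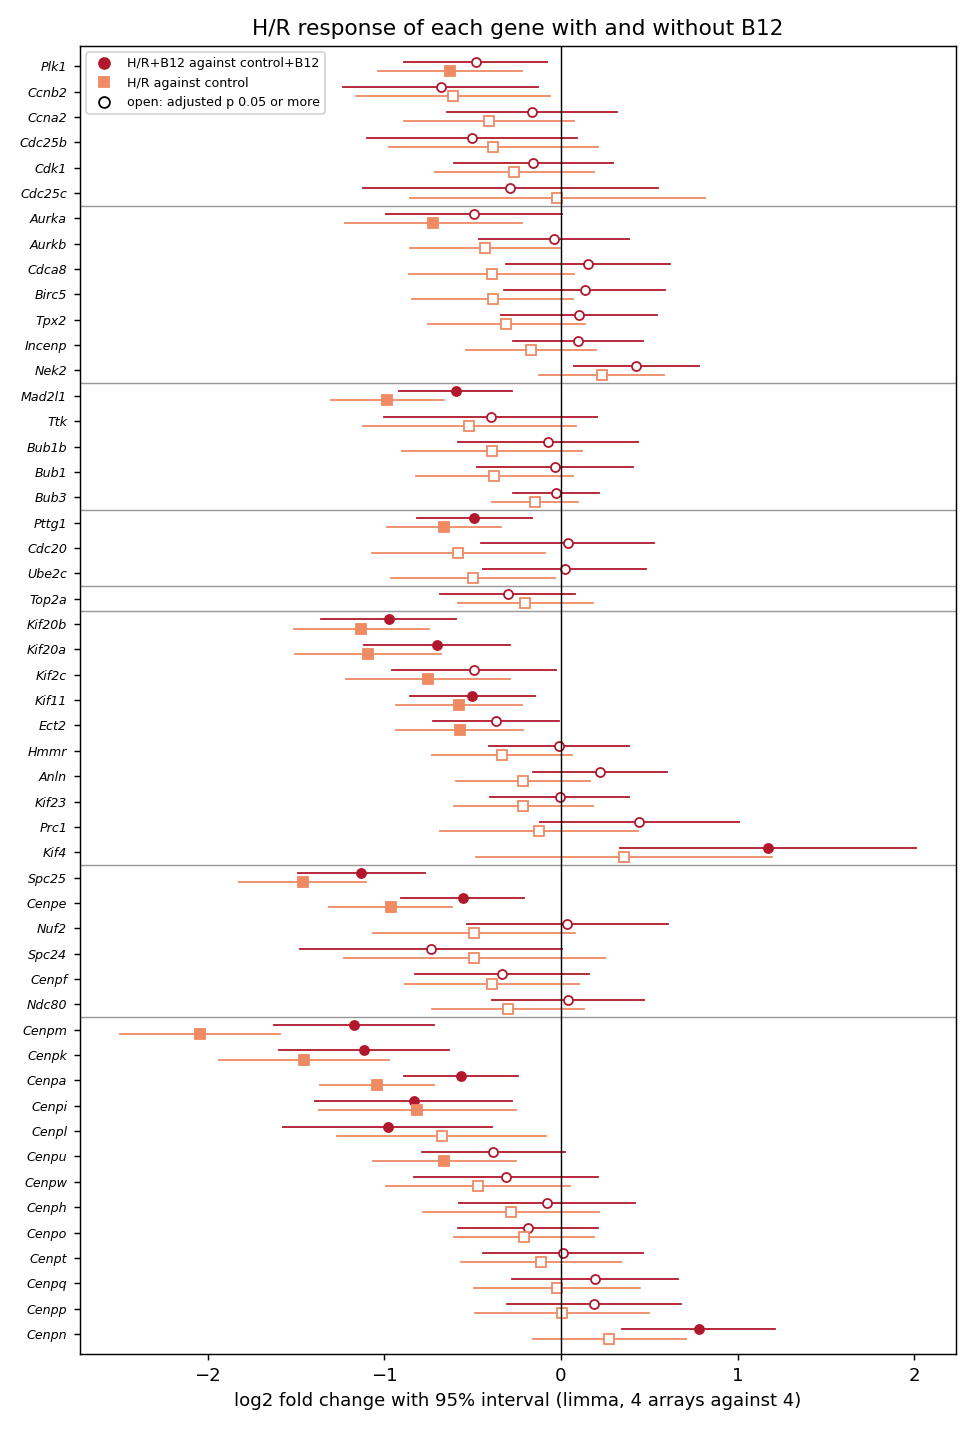
Log2 fold change of each of the 51 genes with its 95% interval from limma, for H/R+B12 against control+B12 (circles) and H/R against control (squares), grouped by role, with filled symbols for an adjusted p under 0.05. Filled symbols on the left of 0 are most frequent among the centromere and motor genes, Cenpm lies farthest left at -2.05, and Cenpn and Kif4 are the filled symbols on the right.

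Among the 6 measured genes of Cdk1, its cyclins and its activators, 1 fell after H/R and none passed with B12. Without control replicate 1, none passed after H/R and 1 fell with B12. Plk1, a kinase that matures centrosomes and drives mitotic entry, had log2 signals of 11.33, 11.50, 11.58 and 11.02 in H/R arrays, against 12.36, 11.72, 12.10 and 11.75 in control arrays. Plk1 was lower in all 4 H/R arrays, with a log2 fold change of -0.63 (SE 0.19, adjusted p = 0.0315), and of -0.50 (adjusted p = 0.104) without control replicate 1. Plk1 had log2 signals of 11.48, 11.85, 11.46 and 10.99 in H/R+B12 arrays, against 11.92, 11.97, 11.78 and 12.05 in control+B12 arrays. These groups overlapped, since the second H/R+B12 array lay above the third control+B12 array, and the log2 fold change of -0.48 (SE 0.19, adjusted p = 0.0984) did not pass.

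Ccnb2, a B-type cyclin, had log2 signals of 10.08, 10.05, 10.12 and 10.16 in H/R arrays, against 11.70, 10.25, 10.68 and 10.22 in control arrays, and these did not overlap. Ccnb2 had log2 signals of 10.21, 10.35, 9.83 and 9.74 in H/R+B12 arrays, against 10.43, 10.97, 10.87 and 10.60 in control+B12 arrays, again without overlap. Neither comparison passed on its own, with log2 fold changes of -0.61 (adjusted p = 0.131) without B12 and -0.68 (adjusted p = 0.0835) with it, and over both B12 states together Ccnb2 fell with a log2 fold change of -0.65 (SE 0.18, adjusted p = 0.0134). The Ccnb2 change was -0.28 (adjusted p = 0.382) after H/R and -0.48 (adjusted p = 0.00894) over both B12 states without control replicate 1. With B12 in both arms, Ccnb2 passed by limma once that array was left out (-0.68, adjusted p = 0.0105). It also passed there in a fit of just the groups compared (adjusted p = 0.0396) and with an intensity trend and robust variances (adjusted p = 0.0206). Cdk1 itself had log2 signals of 9.81, 10.29, 10.08 and 10.05 in H/R arrays, against 11.04, 10.14, 10.23 and 9.88 in control arrays. Apart from control replicate 1 these signals lay in one range, and the log2 fold change was -0.26 (SE 0.21, adjusted p = 0.492), with an interval from -0.71 to 0.19, and -0.03 (adjusted p = 0.955) without that array. Of the other genes that act on Cdk1, the cyclin gene Ccna2 had a log2 fold change of -0.41 (adjusted p = 0.277), the phosphatase Cdc25b one of -0.38 (adjusted p = 0.439), and Cdc25c one of -0.02 (adjusted p = 0.986) after H/R. Leaving out control replicate 1 gave -0.13 (adjusted p = 0.718) for Ccna2, -0.28 (adjusted p = 0.646) for Cdc25b and 0.43 (adjusted p = 0.452) for Cdc25c, the last above 0.

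The 7 genes of Aurora kinases, chromosomal passengers and Nek2 had 1 that fell after H/R and none that passed with B12. Aurka, the Aurora kinase of centrosomes and spindle poles, had log2 signals of 9.61, 9.70, 9.54 and 9.43 in H/R arrays, against 10.82, 10.17, 10.08 and 10.11 in control arrays. Aurka was lower in all 4 H/R arrays, by a log2 fold change of -0.72 (SE 0.24, adjusted p = 0.0432), and of -0.55 (adjusted p = 0.142) without control replicate 1. Aurka had log2 signals of 9.09, 9.75, 9.03 and 9.66 in H/R+B12 arrays, against 9.45, 9.51, 10.21 and 10.34 in control+B12 arrays, which overlapped, with a log2 fold change of -0.49 (SE 0.24, adjusted p = 0.177). Tpx2, which activates Aurka on the spindle, had a log2 fold change of -0.31 (adjusted p = 0.396) after H/R, -0.04 (adjusted p = 0.914) without control replicate 1, and 0.10 (adjusted p = 0.813) with B12.

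None of the chromosomal passenger genes passed in either comparison. They encode Aurora B, survivin, Incenp and borealin, which correct wrong attachments at the centromere. Log2 fold changes after H/R were -0.43 (adjusted p = 0.175) for Aurkb, -0.39 (adjusted p = 0.277) for Birc5, -0.17 (adjusted p = 0.609) for Incenp and -0.39 (adjusted p = 0.278) for Cdca8. Against the other 3 controls they were -0.27 for Aurkb, -0.19 for Birc5, 0.01 for Incenp, now above 0, and -0.22 for Cdca8. With B12 they lay between -0.04 for Aurkb and 0.15 for Cdca8. Nek2, a kinase that separates centrosomes, had fold changes above 0, with log2 signals of 10.22, 10.48, 10.19 and 10.45 in H/R arrays, against 10.31, 9.80, 10.11 and 10.19 in control arrays. Nek2 had log2 signals of 10.41, 10.44, 10.20 and 10.07 in H/R+B12 arrays, against 10.22, 9.88, 9.47 and 9.83 in control+B12 arrays. Groups overlapped in both, and the log2 fold changes of 0.23 (adjusted p = 0.435) without and 0.43 (adjusted p = 0.0934) with B12 did not pass, nor did 0.30 (adjusted p = 0.329) without B12 and control replicate 1. Over both B12 states Nek2 rose by 0.33 (SE 0.12, adjusted p = 0.0492) and passed again in 8 of 22 other settings.

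**Figure D4:**
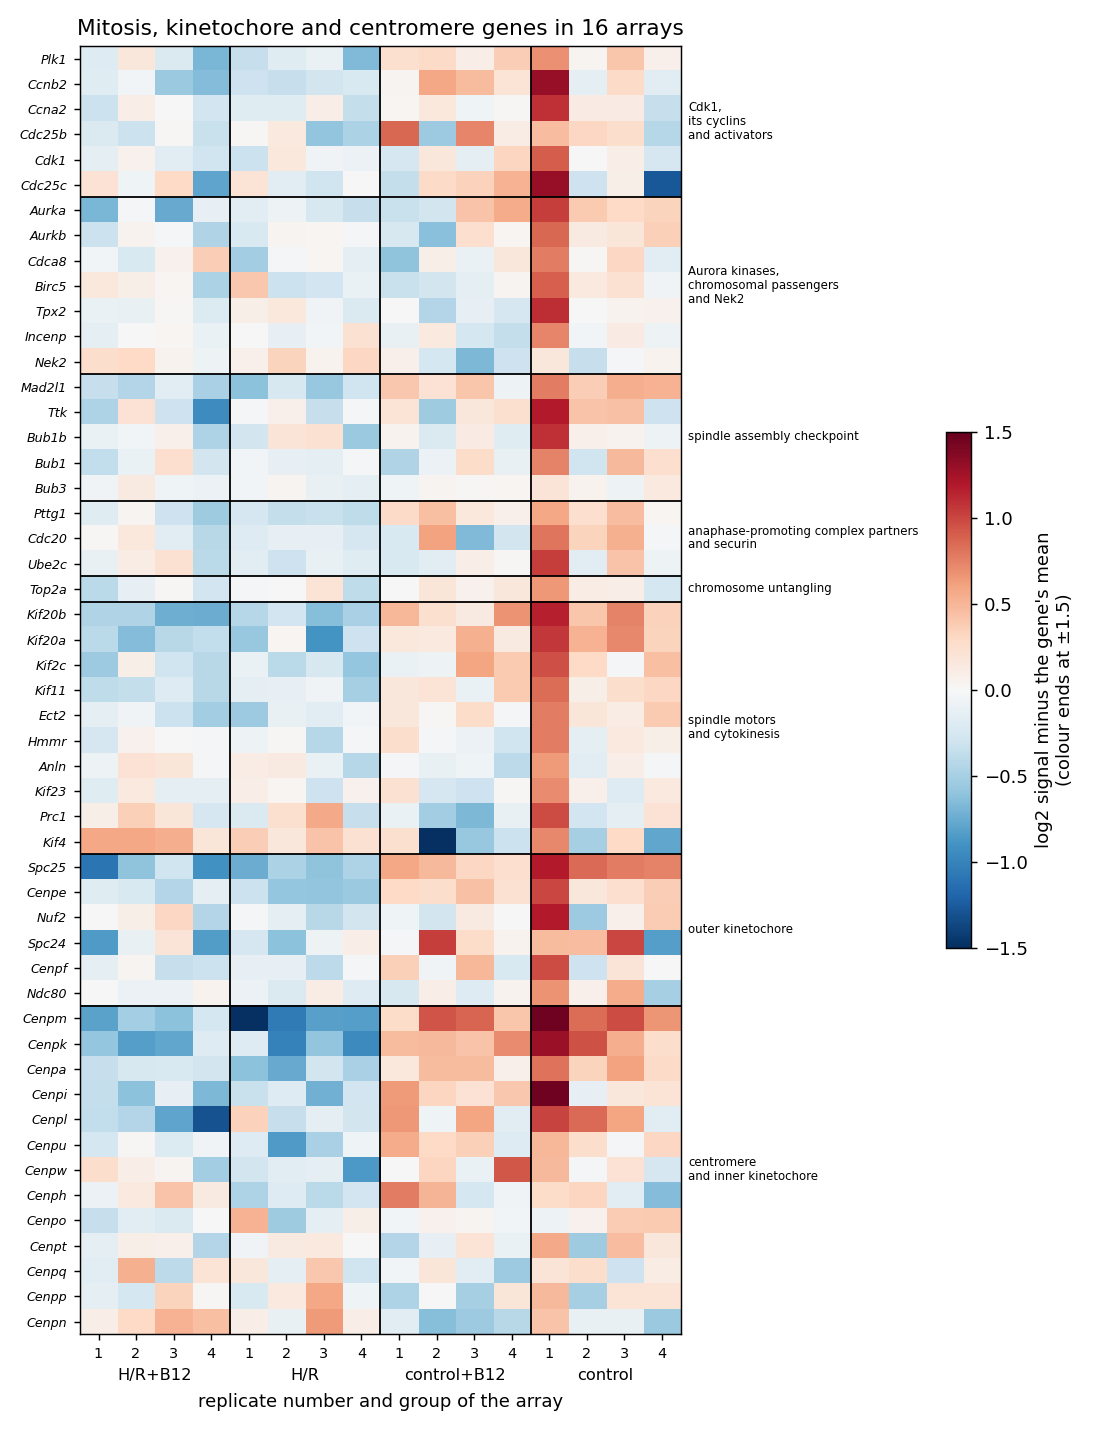
Log2 signal of each of the 51 measured genes minus its mean over 16 arrays, with genes in rows grouped by role and arrays in columns grouped as H/R+B12, H/R, control+B12 and control, blue below the mean and red above it, the colour ending at 1.5 on either side. The column of control replicate 1 is red in nearly all rows, and the blue columns of the H/R groups are deepest for Cenpm, Cenpk, Spc25 and Kif20b.

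Of the 5 spindle assembly checkpoint genes, Mad2l1 fell in both comparisons and the other 4 passed in neither. Mad2l1 encodes Mad2, the protein that holds Cdc20 inactive while kinetochores are unattached. Mad2l1 had log2 signals of 12.04, 12.41, 12.09 and 12.35 in H/R arrays, against 13.42, 13.02, 13.20 and 13.18 in control arrays. Mad2l1 had log2 signals of 12.31, 12.21, 12.49 and 12.17 in H/R+B12 arrays, against 13.06, 12.87, 13.07 and 12.58 in control+B12 arrays. All 8 arrays with H/R were below all 8 without it. Mad2l1 had a log2 fold change of -0.98 (SE 0.15, adjusted p = 0.000196) after H/R, of -0.91 (adjusted p = 0.000913) without control replicate 1, and of -0.60 (SE 0.15, adjusted p = 0.0093) with B12. Bub1, Bub1b and Bub3, which with Mad2 make up or recruit the checkpoint complex, had log2 fold changes of -0.38 (adjusted p = 0.271), -0.39 (adjusted p = 0.34) and -0.15 (adjusted p = 0.474) after H/R. Ttk, the kinase Mps1 that starts checkpoint signalling, had one of -0.52 (adjusted p = 0.266). The changes after H/R were -0.23 for Bub1, -0.12 for Bub1b, -0.11 for Bub3 and -0.27 for Ttk without control replicate 1.

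Securin fell while its partners at the anaphase-promoting complex did not pass with all arrays, and whether they differ in response was not tested. Pttg1, which encodes securin, the inhibitor of the protease that separates chromosome copies, had log2 signals of 11.49, 11.38, 11.40 and 11.36 in H/R arrays, against 12.32, 11.99, 12.20 and 11.77 in control arrays. Pttg1 had log2 signals of 11.56, 11.78, 11.43 and 11.20 in H/R+B12 arrays, against 12.03, 12.19, 11.90 and 11.82 in control+B12 arrays. Neither pair overlapped. Pttg1 had a log2 fold change of -0.66 (SE 0.15, adjusted p = 0.00549) after H/R, of -0.58 (adjusted p = 0.0206) without control replicate 1, and of -0.49 (SE 0.15, adjusted p = 0.0336) with B12, and the last of these did not pass with centred arrays, at -0.41 (adjusted p = 0.0886). Cdc20, the activator of the anaphase-promoting complex, lay below all control arrays in all 4 H/R arrays, with a log2 fold change of -0.58 (adjusted p = 0.102), and with B12 had 0.04 (adjusted p = 0.945). The same change of Cdc20 after H/R passed by limma once control+B12 replicate 2 was left out (adjusted p = 0.0351). Ube2c, the ubiquitin-conjugating enzyme of that complex, had log2 fold changes of -0.50 (adjusted p = 0.145) without B12 and 0.02 (adjusted p = 0.969) with it. With control replicate 1 left out, the changes after H/R were -0.45 (adjusted p = 0.261) for Cdc20 and -0.25 (adjusted p = 0.423) for Ube2c.

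Top2a, the topoisomerase that untangles chromosome copies, had log2 signals of 11.45, 11.47, 11.68 and 11.09 in H/R arrays, against 12.13, 11.59, 11.57 and 11.21 in control arrays. Top2a had log2 signals of 11.07, 11.35, 11.49 and 11.19 in H/R+B12 arrays, against 11.48, 11.66, 11.54 and 11.64 in control+B12 arrays. Both pairs overlapped, and the log2 fold changes of -0.20 (SE 0.18, adjusted p = 0.544) without B12 and -0.30 (SE 0.18, adjusted p = 0.296) with it did not pass. The change after H/R was -0.03 (adjusted p = 0.932) without control replicate 1.

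Among 10 spindle motor and cytokinesis genes, 5 fell after H/R without B12, 2 of them without control replicate 1, and with B12 3 fell and 1 rose. Kif20b, a kinesin of late mitosis needed to complete cytokinesis, had log2 signals of 12.53, 12.67, 12.32 and 12.47 in H/R arrays, against 14.12, 13.38, 13.70 and 13.30 in control arrays. Kif20b had log2 signals of 12.51, 12.51, 12.23 and 12.22 in H/R+B12 arrays, against 13.46, 13.20, 13.09 and 13.63 in control+B12 arrays. Every array with H/R was below every array without it. Kif20b had log2 fold changes of -1.13 (SE 0.18, adjusted p = 0.000311) after H/R, -0.96 (adjusted p = 0.000889) without control replicate 1, and -0.98 (SE 0.18, adjusted p = 0.00103) with B12.

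Kif20a, a kinesin that brings the passenger complex to the midzone of the dividing cell, had log2 signals of 9.69, 10.29, 9.37 and 9.95 in H/R arrays, against 11.32, 10.78, 10.98 and 10.59 in control arrays. Kif20a had log2 signals of 9.86, 9.61, 9.84 and 9.89 in H/R+B12 arrays, against 10.42, 10.41, 10.79 and 10.40 in control+B12 arrays. All 8 arrays with H/R were again the lowest 8. Kif20a had log2 fold changes of -1.09 (SE 0.20, adjusted p = 0.000759) after H/R, -0.96 (adjusted p = 0.00311) without control replicate 1, and -0.70 (SE 0.20, adjusted p = 0.0176) with B12.

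Kif11, the motor that pushes spindle poles apart, had log2 signals of 12.64, 12.66, 12.73 and 12.28 in H/R arrays, against 13.62, 12.87, 13.05 and 13.09 in control arrays. Kif11 had log2 signals of 12.40, 12.43, 12.59 and 12.37 in H/R+B12 arrays, against 12.95, 12.99, 12.68 and 13.17 in control+B12 arrays. Neither pair overlapped, but the calls were close to the threshold. Kif11 had log2 fold changes of -0.58 (SE 0.17, adjusted p = 0.0234) after H/R, -0.42 (adjusted p = 0.0769) without control replicate 1, and -0.50 (SE 0.17, adjusted p = 0.0471) with B12. Kif2c, a kinesin that takes microtubules apart at centromeres, had log2 signals of 11.31, 11.00, 11.16 and 10.82 in H/R arrays, against 12.37, 11.70, 11.38 and 11.86 in control arrays. Kif2c had log2 signals of 10.86, 11.49, 11.10 and 10.99 in H/R+B12 arrays, against 11.30, 11.33, 12 and 11.80 in control+B12 arrays. The H/R and control arrays did not overlap, and those with B12 did. Kif2c had log2 fold changes of -0.75 (SE 0.22, adjusted p = 0.0235) after H/R, -0.57 (adjusted p = 0.0816) without control replicate 1, and -0.49 (SE 0.22, adjusted p = 0.143) with B12.

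Ect2, the exchange factor that activates RhoA for the contractile ring, had log2 signals of 11.98, 12.42, 12.37 and 12.49 in H/R arrays, against 13.30, 12.71, 12.64 and 12.92 in control arrays. Ect2 had log2 signals of 12.39, 12.48, 12.21 and 12.01 in H/R+B12 arrays, against 12.70, 12.55, 12.80 and 12.51 in control+B12 arrays. All 8 arrays with H/R were below all 8 without it, by a narrow gap. Ect2 had log2 fold changes of -0.57 (SE 0.17, adjusted p = 0.0254) after H/R, -0.44 (adjusted p = 0.0861) without control replicate 1, and -0.37 (SE 0.17, adjusted p = 0.159) with B12.

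Kif4, a motor that rides on chromosome arms and the midzone, was higher with H/R in the B12 arms. Kif4 had log2 signals of 10.09, 10.09, 10.06 and 9.70 in H/R+B12 arrays, against 9.75, 7.36, 8.95 and 9.19 in control+B12 arrays, with 1 control+B12 array above the lowest H/R+B12 array. Kif4 had log2 signals of 9.88, 9.68, 9.94 and 9.74 in H/R arrays, against 10.24, 9.02, 9.81 and 8.74 in control arrays, which overlapped. The log2 fold change was 1.17 (SE 0.40, adjusted p = 0.0493) with B12 and 0.36 (SE 0.40, adjusted p = 0.64) without, and 0.62 (adjusted p = 0.378) without B12 and control replicate 1. Control+B12 replicate 2 was the lowest array, without it the log2 fold change with B12 was 0.69 (adjusted p = 0.139), and the call was kept in 8 of 23 other settings.

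The other motor and cytokinesis genes did not pass. They are Kif23, a midzone kinesin, Prc1, which bundles midzone microtubules, Anln, a scaffold of the contractile ring, and Hmmr, a microtubule-binding protein of the spindle. After H/R their log2 fold changes lay between -0.33 for Hmmr and -0.12 for Prc1, and with B12 between -0.01 for Hmmr and Kif23 and 0.44 for Prc1. Against the other 3 controls the changes after H/R were -0.04 for Kif23, 0.14 for Prc1, now above 0, -0.05 for Anln and -0.15 for Hmmr.

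Of the 6 outer kinetochore genes, Spc25 and Cenpe fell in both comparisons, also without control replicate 1. Spc25 is a subunit of the Ndc80 complex, the main grip of the kinetochore on microtubules. Spc25 had log2 signals of 9.50, 9.77, 9.64 and 9.78 in H/R arrays, against 11.43, 11.10, 11.01 and 10.99 in control arrays. Spc25 had log2 signals of 9.15, 9.64, 9.95 and 9.34 in H/R+B12 arrays, against 10.83, 10.73, 10.56 and 10.50 in control+B12 arrays. All 8 arrays with H/R were below all 8 without it, with a gap wider than the SD of any group. Spc25 had log2 fold changes of -1.46 (SE 0.17, adjusted p = 1.57e-05) after H/R, -1.36 (adjusted p = 8.03e-05) without control replicate 1, and -1.13 (SE 0.17, adjusted p = 0.000163) with B12.

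The 3 other subunits of the Ndc80 complex did not pass in either comparison. After H/R the log2 fold change was -0.30 (adjusted p = 0.399) for Ndc80, -0.49 (adjusted p = 0.264) for Nuf2 and -0.49 (adjusted p = 0.425) for Spc24, and with B12 0.04 (adjusted p = 0.931), 0.04 (adjusted p = 0.954) and -0.74 (adjusted p = 0.175) for the same genes in that order. Once control replicate 1 was left out, the changes after H/R were -0.14 (adjusted p = 0.74) for Ndc80, -0.19 (adjusted p = 0.671) for Nuf2 and -0.43 (adjusted p = 0.561) for Spc24. With that array kept, Nuf2 passed after H/R once control replicate 2 was left out (-0.76, adjusted p = 0.0393), and Ndc80 once control replicate 4 was left out (-0.53, adjusted p = 0.0376). Whether Spc25 differs from its partners in response was not tested. Cenpe, a motor that carries chromosomes to the middle of the spindle, had log2 signals of 11.65, 11.40, 11.39 and 11.42 in H/R arrays, against 12.98, 12.15, 12.23 and 12.35 in control arrays. Cenpe had log2 signals of 11.80, 11.75, 11.54 and 11.83 in H/R+B12 arrays, against 12.27, 12.24, 12.42 and 12.20 in control+B12 arrays. Arrays with H/R were all below the others. Cenpe had log2 fold changes of -0.96 (SE 0.16, adjusted p = 0.000514) after H/R, -0.78 (adjusted p = 0.000747) without control replicate 1, and -0.56 (SE 0.16, adjusted p = 0.0252) with B12, the last at -0.47 (adjusted p = 0.0602) with centred arrays. Cenpf, a large protein of the outer kinetochore, had log2 fold changes of -0.39 (adjusted p = 0.32) without B12, -0.13 (adjusted p = 0.748) without B12 and control replicate 1, and -0.33 (adjusted p = 0.39) with it.

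The 13 genes of the centromere and inner kinetochore held 5 that fell after H/R, 3 of them without control replicate 1, and with B12 5 fell and 1 rose. Cenpa encodes the histone variant that marks the centromere. Cenpa had log2 signals of 11.74, 11.60, 12.07 and 11.87 in H/R arrays, against 13.16, 12.68, 12.96 and 12.64 in control arrays. Cenpa had log2 signals of 12.01, 12.11, 12.12 and 12.08 in H/R+B12 arrays, against 12.51, 12.82, 12.82 and 12.43 in control+B12 arrays. All 8 arrays with H/R lay below all 8 without it. Cenpa had log2 fold changes of -1.04 (SE 0.15, adjusted p = 0.000136) after H/R, -0.94 (adjusted p = 0.000566) without control replicate 1, and -0.57 (SE 0.15, adjusted p = 0.0143) with B12.

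The proteins of Cenph, Cenpi, Cenpk and Cenpm form one subcomplex of the inner kinetochore, and 3 of these 4 genes fell in both comparisons. Cenpm had log2 signals of 8.11, 8.59, 8.83 and 8.82 in H/R arrays, against 11.11, 10.49, 10.63 and 10.31 in control arrays. Cenpm had log2 signals of 8.85, 9.14, 9.03 and 9.38 in H/R+B12 arrays, against 9.92, 10.59, 10.52 and 10.06 in control+B12 arrays. The highest array with H/R was below the lowest array without it. Cenpm had log2 fold changes of -2.05 (SE 0.21, adjusted p = 5.76e-06) after H/R, -1.89 (adjusted p = 2.44e-05) without control replicate 1, and -1.17 (SE 0.21, adjusted p = 0.000908) with B12. Cenpk had log2 signals of 8.26, 7.44, 7.87 and 7.50 in H/R arrays, against 9.75, 9.41, 9.00 and 8.72 in control arrays. Cenpk had log2 signals of 7.88, 7.63, 7.68 and 8.27 in H/R+B12 arrays, against 8.93, 8.94, 8.88 and 9.17 in control+B12 arrays. Neither pair overlapped, although both H/R groups spread over more than the control+B12 group. Cenpk had log2 fold changes of -1.46 (SE 0.23, adjusted p = 0.000238) after H/R, -1.28 (adjusted p = 0.000917) without control replicate 1, and -1.11 (SE 0.23, adjusted p = 0.0021) with B12.

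Cenpi had log2 signals of 10.25, 10.39, 9.86 and 10.29 in H/R arrays, against 12.04, 10.46, 10.75 and 10.78 in control arrays. Cenpi had log2 signals of 10.22, 9.96, 10.46 and 9.91 in H/R+B12 arrays, against 11.22, 10.90, 10.79 and 10.98 in control+B12 arrays. All 8 arrays with H/R were below the others, the closest pair being equal at this rounding, and control replicate 1 stood far above its group. Cenpi had log2 fold changes of -0.81 (SE 0.26, adjusted p = 0.0425) after H/R, -0.47 (adjusted p = 0.0948) without control replicate 1, and -0.83 (SE 0.26, adjusted p = 0.036) with B12, the last at -0.75 (adjusted p = 0.0611) with centred arrays. Cenph, the fourth gene of the subcomplex, had log2 fold changes of -0.28 (adjusted p = 0.509) without B12, -0.17 (adjusted p = 0.747) without B12 and control replicate 1, and -0.08 (adjusted p = 0.877) with it.

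Cenpl and Cenpn, whose proteins pair up and bind Cenpa nucleosomes, lay on opposite sides of 0 in the B12 arms. Cenpl had log2 signals of 6.07, 6.00, 5.65 and 5.14 in H/R+B12 arrays, against 7.09, 6.38, 7.04 and 6.27 in control+B12 arrays. Cenpl had log2 signals of 6.79, 6.10, 6.31 and 6.17 in H/R arrays, against 7.46, 7.29, 7.04 and 6.28 in control arrays. The first pair did not overlap and the second did, at levels close to the negative control features. Cenpl had log2 fold changes of -0.98 (SE 0.28, adjusted p = 0.0203) with B12 and -0.67 (SE 0.28, adjusted p = 0.119) without, and -0.53 (adjusted p = 0.291) without control replicate 1. Cenpn had log2 signals of 8.39, 8.58, 8.81 and 8.74 in H/R+B12 arrays, against 8.12, 7.65, 7.74 and 7.87 in control+B12 arrays. Cenpn had log2 signals of 8.39, 8.17, 8.93 and 8.39 in H/R arrays, against 8.71, 8.17, 8.18 and 7.73 in control arrays. All H/R+B12 arrays were above all control+B12 arrays, and the pair without B12 overlapped. Cenpn had log2 fold changes of 0.78 (SE 0.20, adjusted p = 0.0122) with B12 and 0.27 (SE 0.20, adjusted p = 0.45) without it. Without control replicate 1 the value without B12 was 0.45 (adjusted p = 0.153), and the rise with B12 passed in all 23 other settings.

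Cenpo, Cenpp, Cenpq and Cenpu encode a further subcomplex, to which Plk1 binds through Cenpu, and only Cenpu passed after H/R. Cenpu had log2 signals of 8.26, 7.60, 7.96 and 8.38 in H/R arrays, against 8.95, 8.71, 8.43 and 8.76 in control arrays. Cenpu had log2 signals of 8.18, 8.47, 8.24 and 8.39 in H/R+B12 arrays, against 9.01, 8.75, 8.81 and 8.26 in control+B12 arrays. The first pair did not overlap and the second did. Cenpu had log2 fold changes of -0.66 (SE 0.19, adjusted p = 0.023) after H/R, -0.58 (adjusted p = 0.0691) without control replicate 1, and -0.38 (SE 0.19, adjusted p = 0.198) with B12. Cenpo, Cenpp and Cenpq had log2 fold changes of -0.21 (adjusted p = 0.549), 0.01 (adjusted p = 0.99) and -0.02 (adjusted p = 0.969) after H/R. Cenpt and Cenpw, histone-fold proteins that link centromeric DNA to the Ndc80 complex, had -0.11 (adjusted p = 0.813) and -0.47 (adjusted p = 0.236). Leaving out control replicate 1 gave -0.29 for Cenpo, 0.14 for Cenpp, 0.02 for Cenpq, 0.02 for Cenpt and -0.34 for Cenpw, those of Cenpq and Cenpt now above 0.

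**Figure D5:**
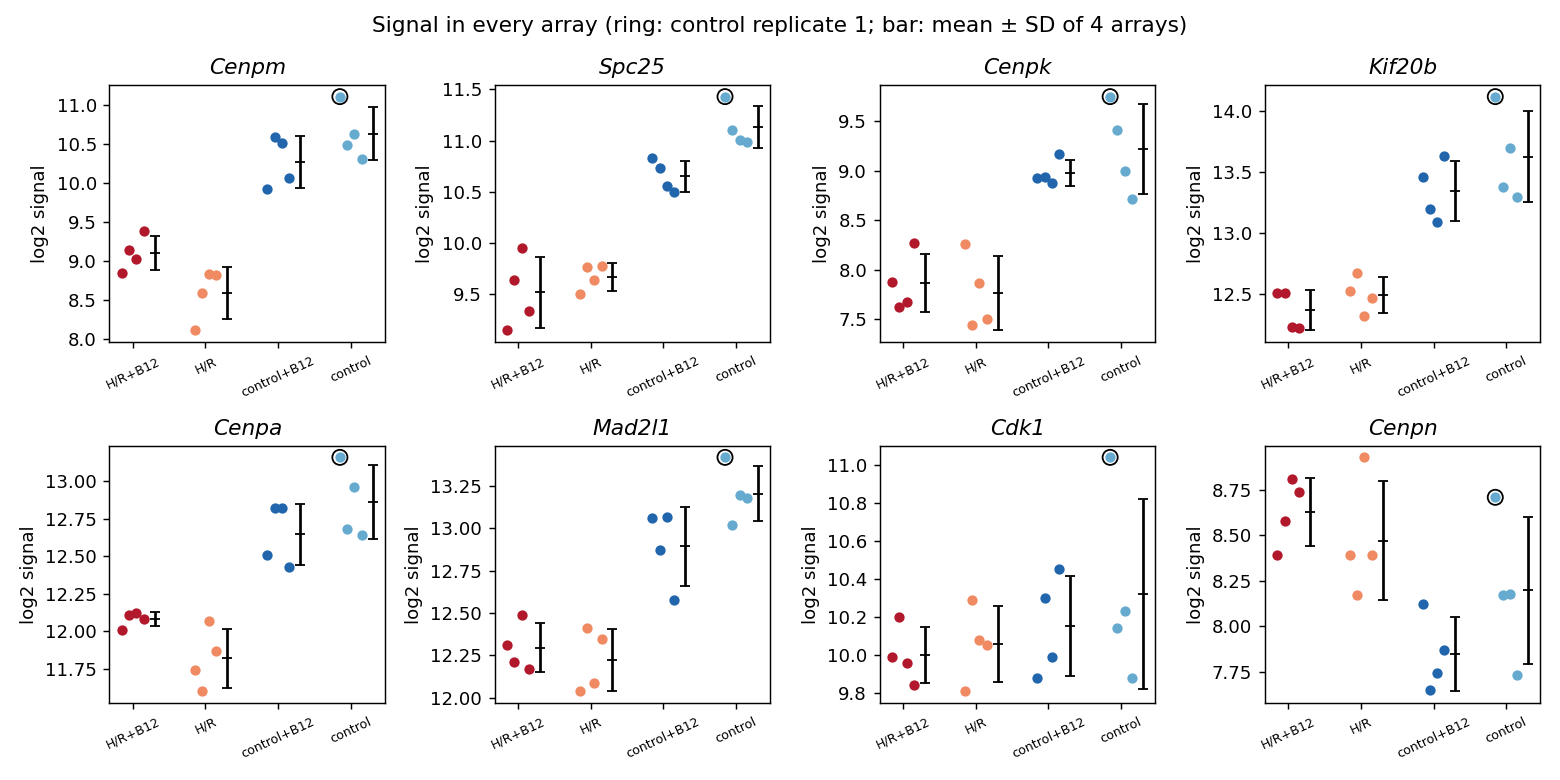
Log2 signal of 8 genes in every array, by group along the horizontal axis in the order H/R+B12, H/R, control+B12 and control, with a ring around control replicate 1 and bars for the mean ± SD of 4 arrays. In Cenpm, Spc25, Cenpk, Kif20b, Cenpa and Mad2l1 all points with H/R lie below all points without it, Cdk1 overlaps apart from the ringed point, and Cenpn lies higher in H/R+B12 than in control+B12.

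Leaving out single arrays other than control replicate 1 ended further calls near the threshold. After H/R without B12, Plk1 did not pass without control 3 or without H/R 1 or 4 (adjusted p 0.0674 to 0.105), and Kif11 did not pass without H/R 4 (0.0817). Ect2 did not pass without control 4 (0.0546) or H/R 1 (0.0916), and Kif2c without control 4, H/R 2 or H/R 4 (0.0515 to 0.0728). Cenpu did not pass without control 4 or without H/R 2 or 3 (0.0531 to 0.0855). Aurka did not pass without any 1 of the other control or H/R arrays (0.0503 to 0.102), and Cenpi not without control 4, any H/R array, or H/R+B12 1 or 2 or control+B12 2 or 4 (0.0503 to 0.124). All these log2 fold changes stayed below 0, between -0.89 for Cenpi and -0.46 for Ect2. With B12, Kif20a did not pass without H/R+B12 2 (0.0549) or control+B12 3 (0.0593), Cenpe without H/R+B12 3 (0.0778) or control+B12 3 (0.0688), and Cenpl without H/R+B12 4 (0.0735) or control+B12 1 or 3 (0.0669 and 0.0641). Pttg1 did not pass without H/R+B12 1, 3 or 4 or control+B12 1 or 2 (0.0536 to 0.111), and Cenpi without H/R+B12 1, 2 or 4 or control+B12 1, 2 or 4 (0.0586 to 0.0955). Kif11 kept its B12 call in 8 of 23 other settings, with adjusted p up to 0.13. Mad2l1, Kif20b, Spc25, Cenpa, Cenpk and Cenpm kept both calls, and Cenpn its B12 call, whichever array was left out.

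B12 added to H/R cells was compared with H/R alone, and B12 added to normal culture with control. In the first, no member and 0% of all probe sets passed at an adjusted p under 0.05 by limma, and at an unadjusted p under 0.05 there were 2 members, against 4.55% of all probe sets. They were Cenpm, with log2 signals averaging 9.10 ± 0.22 in H/R+B12 and 8.59 ± 0.34 in H/R (SD, 4 arrays each), a log2 difference of 0.51 (SE 0.21, adjusted p = 1), and Cenpl, at 5.71 ± 0.43 in H/R+B12 and 6.34 ± 0.31 in H/R, a log2 difference of -0.63 (SE 0.28, adjusted p = 1). The members' median log2 difference was 0.01, with 25 of 51 below 0, against 50.2% of all probe sets.

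In normal culture no member and 0% of all probe sets passed either, and 5 members had an unadjusted p under 0.05 by limma, against 5.76% of all probe sets. They were Spc25, Aurkb, Cdc20, Tpx2 and Birc5, all lower with B12, by -0.48 (adjusted p = 0.82), -0.53 (adjusted p = 0.823), -0.55 (adjusted p = 0.846), -0.51 (adjusted p = 0.845) and -0.49 (adjusted p = 0.846) on the log2 scale. Without control replicate 1 these log2 differences were -0.38, -0.37, -0.42, -0.23 and -0.29. The members' median log2 difference was -0.26, with 45 of 51 below 0, against -0.002 and 50.5% for all probe sets. Without control replicate 1 it was -0.12, with 37 of 51 below 0, against -0.004 and 50.6% for all probe sets.

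The interaction, which asks whether the H/R response differed with B12, passed for no member and for 0% of all probe sets. At an unadjusted p under 0.05 by limma there were 2 members, against 4.82% of all probe sets. Cenpm had an interaction of 0.87 (SE 0.30, adjusted p = 0.972) on the log2 scale and Cenpa one of 0.47 (SE 0.22, adjusted p = 0.987), both in the direction of a smaller fall with B12, and without control replicate 1 these were 0.71 (adjusted p = 0.995) and 0.37 (adjusted p = 0.995). The members' median was 0.24, with 7 of 51 below 0, against 0.006 and 49.2% for all probe sets. Without control replicate 1 it was 0.09, with 14 of 51 below 0, against 0.007 and 49.1% for all probe sets. These medians and counts of the list were not tested. A smaller H/R response of these genes with B12 was thus not shown, and for Cenpm the 95% interval of the difference ran from 0.23 to 1.52.

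Other genes of cell division were counted in the same fits, beside shares of all probe sets of 9.54% that fell and 8.11% that rose after H/R, 8.48% and 7.61% without control replicate 1, and 9.61% and 9.04% with B12. Among 25 further kinetochore and centromere genes, 9 fell and 1 rose after H/R, 6 and 1 without control replicate 1, and 5 fell and 1 rose with B12. Ska2, of the complex that steadies kinetochores on microtubules, had log2 fold changes of -0.99 (SE 0.12, adjusted p = 3.16e-05) without B12 and -1.18 (SE 0.12, adjusted p = 6.13e-06) with it. Cenpx, a histone-fold partner of the Cenpt group, had -1.49 (SE 0.25, adjusted p = 0.000496) and -0.80 (SE 0.25, adjusted p = 0.0369). Mis18a, which helps load Cenpa, had -0.93 (SE 0.21, adjusted p = 0.00449) and -0.78 (SE 0.21, adjusted p = 0.0134), and Mad1l1, the kinetochore anchor of Mad2, had -0.70 (SE 0.16, adjusted p = 0.00493) and -0.81 (SE 0.16, adjusted p = 0.00172), in the same order. All 4 also passed without control replicate 1. The gene that rose in each was Sgo2a, a guardian of centromere cohesion, with 0.91 (SE 0.25, adjusted p = 0.0152) and 1.06 (SE 0.25, adjusted p = 0.00559).

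In 28 genes of the anaphase-promoting complex and of mitotic entry and exit, 7 fell and 4 rose after H/R, 5 and 3 without control replicate 1, and 5 fell and 4 rose with B12. Subunits of the complex moved in both directions. Of those that fell, Cdc23 had a log2 fold change of -1.25 (SE 0.17, adjusted p = 5.39e-05) after H/R, Anapc13 one of -0.81 (SE 0.15, adjusted p = 0.000864), Anapc11, the catalytic RING subunit, one of -0.88 (SE 0.16, adjusted p = 0.000881), and Anapc15 one of -0.63 (SE 0.13, adjusted p = 0.00211). Of those that rose, Cdc16 had 0.59 (SE 0.13, adjusted p = 0.00314), Cdc27 0.56 (SE 0.13, adjusted p = 0.00598) and Anapc2 0.38 (SE 0.13, adjusted p = 0.0488). Cdc16 and Cdc27 also rose with B12, and Anapc2 did not pass without control replicate 1. Of 19 condensin and cohesin genes 3 fell after H/R, and 2 fell and 1 rose with B12. Those that fell after H/R were Ncapd3, a condensin subunit (-1.06 (SE 0.18, adjusted p = 0.000458)), Pds5b, a cohesin regulator (-0.76 (SE 0.14, adjusted p = 0.00101)), and Ncapg, another condensin subunit (-0.61 (SE 0.19, adjusted p = 0.0302)), as log2 fold changes. With control replicate 1 left out, Ncapg did not pass, and 2 genes rose, the condensin gene Smc4 with 0.48 (adjusted p = 0.0307) and Wapl, which releases cohesin, with 0.64 (adjusted p = 0.0489), the list's median being -0.01, against -0.17 with all arrays. Among 25 further spindle and cytokinesis genes 5 fell and 1 rose after H/R, 2 and none without control replicate 1, and 2 fell and 1 rose with B12. Kif14, a kinesin of cytokinesis, had a log2 fold change of -1.31 (SE 0.20, adjusted p = 0.000224) after H/R, and Dlgap5, a spindle protein, one of -0.78 (SE 0.19, adjusted p = 0.00853). Kif22, a chromosome arm motor, had -0.83 (SE 0.24, adjusted p = 0.0235), and Kif2a, a microtubule depolymerase, rose with 0.51 (SE 0.14, adjusted p = 0.0207), and neither passed without control replicate 1.

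Among 18 centriole and centrosome genes, 3 fell and 1 rose after H/R, 2 and 2 without control replicate 1, and 4 fell and 1 rose with B12. Cep97, which caps centrioles, had a log2 fold change of -1.38 (SE 0.21, adjusted p = 0.000179) after H/R, Cep192, a scaffold that recruits centrosome kinases, one of -1.11 (SE 0.16, adjusted p = 9.24e-05), and Cenpj, a centriole length factor, one of -0.84 (SE 0.23, adjusted p = 0.0191) that did not pass without control replicate 1. Haus6, of the augmin complex that seeds microtubules in the spindle, rose with 0.69 (SE 0.18, adjusted p = 0.0136). Of 21 genes of transcription factors that act on these promoters, 4 fell and 2 rose in each comparison, also without control replicate 1. Tfdp2, a partner of E2F factors, had a log2 fold change of -0.89 (SE 0.16, adjusted p = 0.000831) after H/R, the MuvB subunit Lin52 one of -0.71 (SE 0.18, adjusted p = 0.00936), and the pocket protein gene Rbl2 one of -0.68 (SE 0.20, adjusted p = 0.0239). E2f4, the E2F of the DREAM complex, rose with 0.78 (SE 0.16, adjusted p = 0.00223). Mybl2, the activating partner of MuvB, had -0.11 (SE 0.23, adjusted p = 0.833), and Foxm1 was not analysed here. DNA replication genes gave 12 of 38 that fell after H/R and none that rose, 10 of 38 without control replicate 1, and 7 that fell and 1 that rose with B12. Ccne1, the cyclin of S phase entry, had a log2 fold change of -1.56 (SE 0.24, adjusted p = 0.000243) after H/R, Tyms, thymidylate synthase, one of -1.02 (SE 0.15, adjusted p = 0.000134), and Gins4 and Gins2, subunits of the replicative helicase, -0.97 (SE 0.13, adjusted p = 4.76e-05) and -0.65 (SE 0.13, adjusted p = 0.00192).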

How the data were processed

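RNA of 16 BU.MPT samples was measured on Affymetrix arrays, 4 arrays in each of 4 groups set by the sample titles. The deposited values are log2 signals that the authors made with RMA, which corrects background, quantile-normalizes and summarises probes. Affymetrix Expression Console, RMA and Transcriptome Analysis Console are named in the submitters' processing notes, with no versions given in the sources used here. RMA brings array distributions close together, so a change shared by most genes would be lost. Of 28846 features, 6640 control features were left out and 22206 probe sets were tested. Probe sets were named from GEO's platform annotation, which gave 1 gene symbol for 19572 of them, none for 2634 and several for 0, and the names were checked against RefSeq on GRCm38.p6, which also gave the promoters. All columns of the table were mapped to samples.

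A model of the 4 groups with no covariate was fitted to all arrays by lmFit and eBayes of limma 3.58.1, run in R 4.3.3 (prior degrees of freedom 4.23). Tests are two-sided, with the Benjamini-Hochberg adjustment over 22206 probe sets made separately in 6 comparisons, with a threshold of 0.05. Intervals are at 95%. The fit was tested on simulated data with known changes. Gene lists are described by counts and medians, without tests. The members, the role groups and the 12 other lists were chosen with earlier results of these data known. Values in every array are given for members past the threshold in any comparison, up to 20 by the smallest adjusted p in H/R against control, and for the member with the largest change in each role. Kif4, Sgo2a, Cdc16, Cdc27, Anapc2, Smc4 and Wapl were added after their values were seen. Cdk1, whose arrays are also shown, falls outside this rule and was likewise picked with its values known. Up to 4 genes of each other list that passed are named, and Foxm1 and Mybl2 in any case. Other settings tried were centring each array on its median, quantile normalization, a filter on the 25% of probe sets with the lowest mean, limma's array weights, its intensity trend with robust variances, a fit of just the groups compared, the replicate number as a block, and leaving out each array. Figures were drawn in matplotlib 3.10.9 under Python 3.11.15.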

Additional observations from a re-analysis of the deposited data

Results flagged for a closer look

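Single arrays that stood far from the other 3 of their group were looked for by Dixon's ratio, the gap to the nearest other array divided by the group's whole range, set against its 95% critical value for 4 arrays. Chance passes this in about 1 of 20 groups, and 9 of 204 combinations of a member and a group did so. In the control group, replicate 1 was high for 3 members. Aurka was at 10.82 there and between 10.08 and 10.17 in the other controls (ratio 0.874), Tpx2 was at 12.82 and between 11.70 and 11.77 (ratio 0.935), and Bub1b was at 12.03 and between 10.85 and 11.01 (ratio 0.865), all as log2 signals.

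In the H/R+B12 group, replicate 2 was high for Bub3, at 14.63 with the others between 14.41 and 14.44 (ratio 0.866), and for Kif23, at 12.09 with the others between 11.77 and 11.80 (ratio 0.889). Replicate 4 was low for Kif4, at 9.70 with the others between 10.06 and 10.09 (ratio 0.911). In the H/R group, replicate 1 was high for Cenpe, at 11.65 with the others between 11.39 and 11.42 (ratio 0.896). The mean over all members in that group was low in replicate 4, at 9.95 with the others at 10.02 (ratio 0.953). In the control+B12 group, replicate 2 was low for Ttk, at 9.05 with the others between 9.76 and 9.83 (ratio 0.911), and replicate 3 was high for Kif20a, at 10.79 with the others between 10.40 and 10.42 (ratio 0.971).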

How the results depend on the processing

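The number of arrays, 4 per group, and the unknown independence of the replicates limit every value, and Spc24 and Cenpl are also limited by signals near the negative control features. Members past the threshold numbered 16 for H/R against control, between 9 (without control replicate 1) and 16 when single arrays were left out. For H/R+B12 against control+B12 they numbered 14, between 9 (without H/R+B12 replicate 4) and 15, and for the pooled H/R effect 20, between 19 and 21. These counts take falls and rises together. Shares of all probe sets are given above only with all arrays, without control replicate 1 and with centred arrays. For the other arrays left out, a change in the count cannot be set against that of all probe sets. The 3 comparisons that involve B12 gave 0 members, and between 0 and 0 under every array left out. Without control replicate 1 the members' median log2 fold change was -0.25 for H/R against control, -0.12 for control+B12 against control and 0.093 for the interaction, and the further spindle and cytokinesis genes that passed after H/R numbered 2. With arrays centred on their medians, the median log2 fold change over all probe sets was 0.0501 for H/R against control, 0.0476 for H/R+B12 against control+B12 and 0.0481 for the pooled effect, and the mean of the members in control+B12 was 10.2 once the mean of the 16 array medians was added back, against 10.26 as deposited. Centring also turned the split of all probe sets after H/R, with 1646 lower and 2133 higher, against 2118 and 1801 as deposited, and with B12, with 1605 lower and 2417 higher, against 2135 and 2007.

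Same-numbered arrays deviated from their group means with correlations between -0.072 and 0.0786, with 0 of 24 over 0.1, and 7 of 16 arrays correlated best with one of their own number, so the numbers were not taken as pairs. With the replicate number as a block, 16 members passed for H/R against control, 13 for H/R+B12 against control+B12, 20 for the pooled effect and 0 for each comparison that involves B12. Shares of all probe sets under the block are not given, so these counts cannot be set against them. Aurka (-0.72, adjusted p = 0.0733), Kif11 with B12 (-0.50, adjusted p = 0.0699) and Nek2 pooled (0.33, adjusted p = 0.0551) were lost under the block, and Cenpl after H/R was gained (-0.67, adjusted p = 0.0237). A pooled call was gained as well, and its gene is not named here because gains were listed only for the comparisons with and without B12. Over the 50 results of single members that passed, 1017 of 1130 alternative values kept direction and side of the threshold, 113 kept the direction without passing, and 0 reversed. Over the 103 that did not pass, 79 of 2338 alternative values turned sign, in 25 results and none past the threshold, among them Cdc25c, Incenp, Prc1, Cenpq and Cenpt after H/R without control replicate 1. In the comparisons with and without B12, 14 calls of 9 members were gained under single settings. A second probe set could not be tried because no member had several, and a fit of only 2 groups gives neither an interaction nor a pooled value.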
